A study of Mus musculus with 2 samples.

Results

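The BCL2 family decides at the mitochondrial outer membrane whether a cell survives, and 10 of its genes were followed in primitive and maturing haematopoietic stem cells (HSC) of the mouse. The genes were 4 that encode survival proteins (Bcl2, Bcl2l1, Bcl2l2 and Mcl1), the gene of the pore-forming effector Bak1, and 5 genes of BH3-only death proteins (Bad, Bid, Bcl2l11, Bbc3 and Pmaip1). Every probe set that the array annotation gave to one of these symbols was taken, which made 28 probe sets of 20380 with a single gene symbol, and 10 genes of 12393. Cells were sorted by flow cytometry from untreated mouse bone marrow after a short culture, and 1 Affymetrix array was hybridised for primitive HSC and 1 for maturing HSC. The labels name no strain, age, number of animals or sorted surface phenotype. Each array read cRNA made from a cloned cDNA library that had been amplified by PCR, so an intensity reports the make-up of that library. With 1 array per population there are no replicates and no test, and every difference below describes this pair of libraries.

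Survival proteins such as BCL2, BCL-XL, BCL-W and MCL1 hold the pore-forming members in check. When a pore former such as BAK is set free, it opens the outer membrane and cytochrome c escapes to start the caspases. BH3-only proteins carry stress signals to this switch by binding the survival proteins, and some of them also act on the pore formers directly. In mouse bone marrow, loss of MCL1 is known to deplete HSC, and BIM, the product of Bcl2l11, is known to drive the death of blood cells deprived of cytokines.

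The members that passed 4-fold, Bad and Bcl2l11, were both BH3-only genes, a class that holds 5 of the 10 members. Within that class 3 genes were higher and 2 lower in primitive HSC, so these calls do not describe the class. Of all measured genes, 3.45% passed 4-fold toward primitive HSC and 4.69% toward maturing HSC. Within the upper tercile of mean intensity, where both genes lay, these shares were 8.84% and 9.89%. Bad had 5.96 times the intensity in primitive HSC, and Bcl2l11 was 4.84-fold lower there than in maturing HSC. No other member passed 4-fold at the floor used, but Bcl2 gives only a bound there, and its log2 ratio was -2.39 with a lower floor or none, against -2.27 for Bcl2l11. Among the survival genes, Mcl1 and Bcl2 were lower in primitive HSC by 2-fold or more, whereas Bcl2l1 and Bcl2l2 stayed within 1.45-fold. The Mcl1 value is that of its brightest probe set, and other Mcl1 probe sets gave smaller differences, down to 1.07-fold.

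The promoters of the genes at the extremes are shown here because they are the regulatory sequence nearest to the start of each transcript. Each is the 250 bases before the most upstream annotated start, taken from RefSeq on GRCm38.p6, 5′ to 3′ on the plus strand of the genome. Capitals mark matches, on either strand, to the GC box (GGGCGG), the FOXO core (TGTTTAC), the E-box (CACGTG), the CCAAT box (CCAAT) and the TATA box (TATAAA). Bcl2l11 lies at chr2:128125788-128126037 and Bad at chr19:6941611-6941860.
Bcl2l11: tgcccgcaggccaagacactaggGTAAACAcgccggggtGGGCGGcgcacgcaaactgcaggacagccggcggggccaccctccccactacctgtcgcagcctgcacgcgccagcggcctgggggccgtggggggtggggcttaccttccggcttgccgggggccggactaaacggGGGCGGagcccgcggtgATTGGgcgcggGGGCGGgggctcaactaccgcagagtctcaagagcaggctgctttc
Bad: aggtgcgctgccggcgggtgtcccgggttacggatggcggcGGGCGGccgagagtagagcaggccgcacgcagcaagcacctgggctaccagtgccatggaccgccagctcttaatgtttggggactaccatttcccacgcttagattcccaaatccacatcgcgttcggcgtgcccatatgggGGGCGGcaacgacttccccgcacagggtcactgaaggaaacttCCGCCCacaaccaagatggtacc

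Both windows were rich in G and C, at 72.0% for Bcl2l11 and 62.8% for Bad, against a median of 52.4% over 32851 windows of the same length. They held 24 and 21 CpG dinucleotides, where the median window held 6. Each contained 3 GC boxes, and 32.7% of all windows held at least 1. Among the members searched, 10 of 15 windows held it, from 7 of 9 genes, so it is not particular to these 2. Of the 2 annotated Bad windows, only 1 held it. The Bcl2l11 window also held 1 CCAAT box (33.8% of windows) and 1 FOXO core, read on the minus strand from 227 to 221 bases before the start. A FOXO core occurred in 3.17% of all windows. Over the members, whose genes have up to 3 windows each, 15 windows of 9 genes were searched and 2 held it, 1 of Bcl2l11 and 1 of Bbc3. Pmaip1 was the member left out of this search, while the share over all windows was taken without that exclusion. An E-box (6.02% of windows) and a TATA box (12.4%) had no match in either sequence shown. A match is only a run of letters, and no binding was measured here.

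An intensity under 441.0, the median over the non-control probe sets of both arrays, was treated as a floor. A probe set under the floor on 1 array gives only a bound on the ratio, and one under it on both arrays was not measured. Of the 28 probe sets, 21 were measured and 7 lay under the floor on both arrays. A gene was represented by its probe set with the highest mean intensity, and by that measure all 10 genes could be compared. For 6 of them both arrays were above the floor, and for 4 (Bcl2, Bak1, Bbc3 and Pmaip1) the ratio is a bound, so these 4 entered the comparison through 1 array only. Log2 ratios are primitive over maturing throughout.

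**Figure D1:**
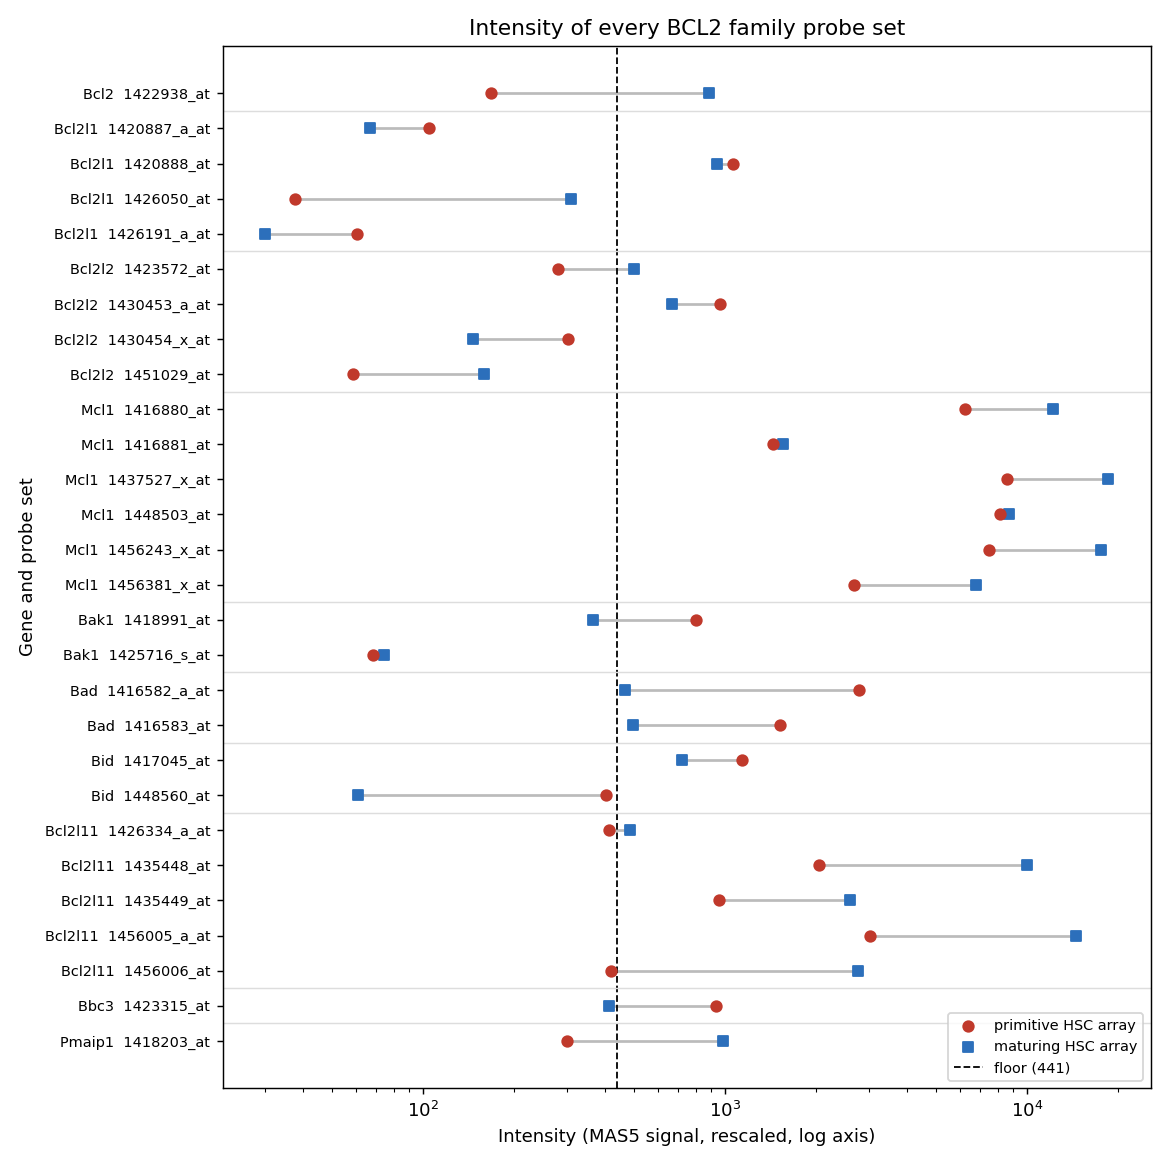
Intensity of each of the 28 probe sets (log axis), with the primitive HSC array as red circles, the maturing HSC array as blue squares and the floor of 441 as a dashed line. Of 5 Bcl2l11 probe sets, 4 show a wide gap with the maturing array brighter, and both Bad probe sets show the primitive array brighter.

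At the level of the family, 6 genes were higher and 4 lower in primitive HSC by value or bound, where 52.7% of all measured genes were higher and 47.3% lower. Their median log2 ratio was 0.35, against 0.07 over all 8852 measured genes. Of the 10 genes 1 was at least 4-fold higher and 1 at least 4-fold lower. On the whole array 3.45% of all measured genes were at least 4-fold higher and 4.69% at least 4-fold lower. At 2-fold, 2 members were higher (background 15.6%) and 4 were lower (background 17.6%). Over the 21 measured probe sets the balance was the opposite, with 7 higher, 14 lower and a median of -0.19. Of these, 1 was at least 4-fold higher (background 3.03%) and 3 at least 4-fold lower (4.76%), and 3 were at least 2-fold higher (13.9%) and 9 at least 2-fold lower (18.5%). The 9 came mostly from Bcl2l11 and Mcl1, which have the most probe sets. With 10 genes these counts are too small to set the family apart, and what follows goes by single genes. A lower signal can mean fewer cells that carry a transcript, less transcript per cell, or a difference in library amplification or array scaling. These cannot be told apart in sorted bulk material with 1 array per population. There were 4 members that had more than 1 measured probe set. In 3 of them (Mcl1, Bad and Bcl2l11) all measured probe sets went the same way, as they did in 55.6% of 2764 such genes on the array.

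Of the survival genes, Mcl1 had the most probe sets. MCL1 is a short-lived survival protein that blood stem and progenitor cells need. Its brightest probe set, 1437527_x_at, read 8574 in primitive HSC and 18617 in maturing HSC, a log2 ratio of -1.12. Probe set 1456243_x_at read 7475 in primitive HSC and 17651 in maturing HSC, and 1456381_x_at read 2686 in primitive HSC and 6778 in maturing HSC. Probe set 1416880_at, at 6243 in primitive HSC and 12207 in maturing HSC, had a ratio of -0.97. These 4 therefore lay between -1.34 and -0.97. The remaining pair did not show that gap, as 1448503_at read 8141 in primitive HSC and 8698 in maturing HSC and 1416881_at read 1448 in primitive HSC and 1557 in maturing HSC. Both had a ratio of -0.10. All 6 Mcl1 probe sets were lower in primitive HSC, but the size of the difference ran from 1.07-fold to 2.52-fold. The suffix _x_at, carried by 3 of the 4 probe sets with the larger gap, marks probe sets in which some probes can bind other transcripts. The SD over the 6 was 0.56 on the log2 scale, inside the SD of 0.82 between probe sets of one gene over 1318 genes.

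Bcl2, the founding survival gene of the family, was represented by 1 probe set. It read 168 in primitive HSC, under the floor, and 883 in maturing HSC, so it was at least 2-fold lower in primitive HSC. Without the floor the log2 ratio was -2.39. Of all measured genes, 17.6% had a lower ratio or bound.

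Bcl2l1 encodes BCL-XL, a survival protein on which erythroid cells and platelets depend. Only 1420888_at of its 4 probe sets was above the floor, with 1063 in primitive HSC and 943 in maturing HSC, a log2 ratio of 0.17. The other 3 probe sets stayed between 37.6 and 105 on the primitive array and between 30.0 and 310 on the maturing array. They gave no measured ratio. Bcl2l2 encodes BCL-W, a close relative. Its probe set 1430453_a_at read 967 in primitive HSC and 668 in maturing HSC, a ratio of 0.53, and 1423572_at read 281 in primitive HSC and 502 in maturing HSC, a bound of -0.19. The measured Bcl2l2 probe sets thus disagreed in direction, and both values are small beside the spread between probe sets.

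Bak1 encodes BAK, which forms the pore. Probe set 1418991_at read 802 in primitive HSC and 366 in maturing HSC, which is under the floor, so Bak1 was higher in primitive HSC by at least 1.82-fold. The second probe set, 1425716_s_at, read 68.1 in primitive HSC and 74.5 in maturing HSC and was not measured.

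Bad was the member with the highest ratio. BAD binds BCL2, BCL-XL and BCL-W, and survival signalling through AKT holds it inactive by phosphorylation. Probe set 1416582_a_at read 2780 in primitive HSC and 466 in maturing HSC, a log2 ratio of 2.58. Probe set 1416583_at read 1521 in primitive HSC and 498 in maturing HSC, a ratio of 1.61 or 3.05-fold. The maturing values of both were just above the floor of 441.0. Of all measured genes, 1.51% had a higher ratio than Bad. Among the genes of the upper tercile of mean intensity, where Bad lay, 8.84% were at least 4-fold higher in primitive HSC. Both probe sets passed 2-fold, as happened in 82 of 1886 genes with 2 measured probe sets (4.35%).

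Bcl2l11 was the lowest member at the floor used, although Bcl2 was lower with the floor at percentile 25 or without one. BIM, its product, binds every major survival protein of the family, and its gene is a known target of FOXO factors. Probe set 1456005_a_at read 3015 in primitive HSC and 14587 in maturing HSC, a log2 ratio of -2.27. Probe set 1435448_at read 2045 in primitive HSC and 10017 in maturing HSC (-2.29), and 1435449_at read 955 in primitive HSC and 2606 in maturing HSC (-1.45). In 1456006_at the primitive value of 420 was under the floor and the maturing value was 2768, so the ratio of -2.65 is a bound of at least 6.28-fold. These 4 probe sets were all lower in primitive HSC by 2.73-fold or more. The fifth, 1426334_a_at, was dim on both arrays, with 414 in primitive HSC and 487 in maturing HSC, and its bound was -0.14. Of 292 genes with at least 4 measured probe sets, 25 (8.56%) had at least 4 that were 2-fold or more lower in primitive HSC. Over all measured genes 2.81% had a lower ratio than Bcl2l11, and in the upper tercile of mean intensity 9.89% were at least 4-fold lower in primitive HSC.

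The remaining BH3-only genes had smaller ratios or bounds. Bid encodes the protein that death receptors switch on by cleavage, and its probe set 1417045_at read 1137 in primitive HSC and 720 in maturing HSC, a ratio of 0.66. Its other probe set, 1448560_at, read 403 in primitive HSC and 61.0 in maturing HSC, under the floor on both arrays. Bbc3 encodes PUMA, a death protein induced by DNA damage. It read 937 in primitive HSC and 413 in maturing HSC, and with the maturing value under the floor it was higher in primitive HSC by at least 2.12-fold. Pmaip1 encodes NOXA, which binds MCL1 in preference to BCL-XL. Its probe set 1418203_at read 299 in primitive HSC, under the floor, and 984 in maturing HSC, so it was at least 2.23-fold lower in primitive HSC. Of the 5 BH3-only genes, 3 were therefore higher and 2 lower in primitive HSC, and the group showed no common direction.

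**Figure D2:**
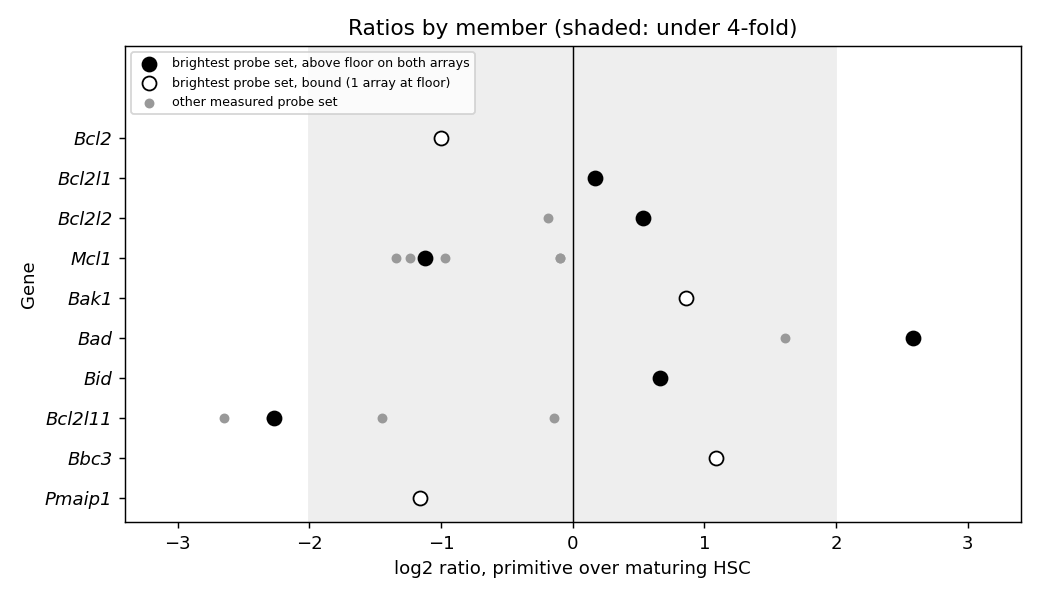
Log2 ratio of primitive over maturing HSC for each member, with the brightest probe set as a filled circle (above the floor on both arrays) or open circle (bound) and other measured probe sets in grey. Bad at 2.58 and Bcl2l11 at -2.27 lie outside the shaded range of less than 4-fold.

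The scaling of the arrays bears on the sign of some members. The 18 hybridisation control probe sets, which detect transcripts added at a fixed amount, had a median log2 ratio of 0.97 toward the primitive array. Scaling to them moved the median over genes that cleared the floor on each array to -0.68, against 0.09 in the main setting, and changed the split of 4-fold calls over all genes to 91 higher and 1231 lower, against 305 and 415. Under that scaling Bad stood at 1.60 and no longer reached 4-fold, Bcl2l11 at -3.25 and Mcl1 at -2.09. Bcl2l1, Bcl2l2 and Bid turned to -0.80, -0.44 and -0.31. Less that median, Bad stood at 2.28, Mcl1 at -1.41 and Bcl2l11 at -2.57, against 2.49, -1.21 and -2.36 in the main setting. By value or bound, Bad was highest and Bcl2l11 lowest in that setting. Of the 10 alternative settings that give a ratio, Bcl2l11 was at least 4-fold lower in 10 and Bad at least 4-fold higher in 8. Several of these settings left the Bcl2l11 ratio at its main value of -2.27, so they are not separate checks of it. The Bad ratio was 1.44 with the floor raised to percentile 75, where the maturing value lay under the floor. Bcl2 became -2.39 when the floor was lowered to percentile 25 or left out.

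**Figure D3:**
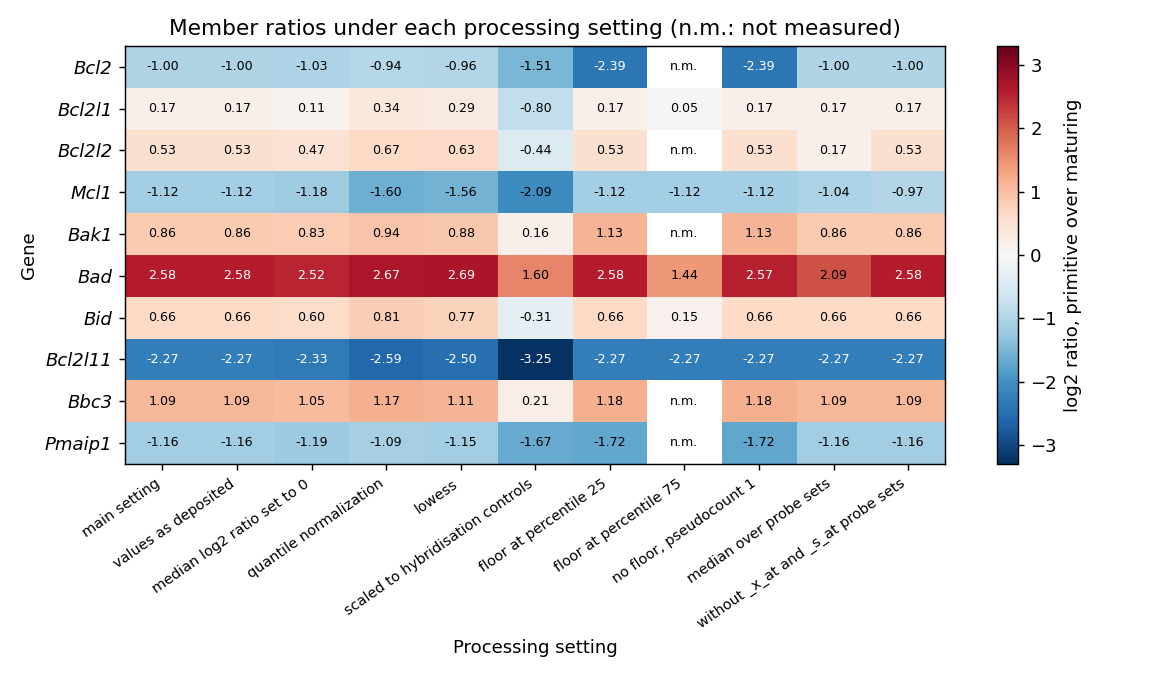
Log2 ratio of primitive over maturing HSC for each member (rows) in the main setting and under 10 alternative settings (columns), with n.m. where both arrays were under the floor. Bcl2l11 runs from -3.25 to -2.27 and Bad from 1.44 to 2.69, and Bcl2l1, Bcl2l2 and Bid change sign under scaling to the hybridisation controls.

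Of 11 further BCL2 family genes with a probe set, 9 were measured, with a median log2 ratio of 0.37. By value or bound 0 of them passed 2-fold, where 15.6% of all genes were higher and 17.6% lower by as much. Several are bounds whose difference may be larger. Bik, a BH3-only gene, read 811 in primitive HSC and 20.5 in maturing HSC, a bound of at least 1.84-fold higher. Bok, a relative of the pore formers, read 163 in primitive HSC and 677 in maturing HSC, a bound of at least 1.54-fold lower. The brightest probe set of Bnip2 had a ratio of 0.70, but its 3 measured probe sets ran from -2.02 to 0.70. Bcl2l14 read 383 in primitive HSC and 651 in maturing HSC, a bound of -0.56, with its other measured probe set at 0.00.

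Downstream of the mitochondria, Apaf1, the scaffold of the apoptosome, read 3578 in primitive HSC and 559 in maturing HSC, a log2 ratio of 2.68. Its second measured probe set was at 0.20, so the difference rests on 1 probe set. Casp9, the caspase that the apoptosome activates, read 1115 in primitive HSC and 448 in maturing HSC (1.31), again with a second probe set near 0, at 0.10. The inflammatory caspase gene Casp4 read 482 in primitive HSC and 1278 in maturing HSC, and Casp12 read 579 in primitive HSC and 1272 in maturing HSC. Of 9 measured genes for caspases and the apoptosome, 1 was higher in primitive HSC by at least 4-fold (3.45% of all genes). By as much, 0 were lower (4.69% of all genes), and the median was 0.49.

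Caspase inhibitors and mitochondrial death factors had a median of -0.54 over 12 measured genes. Of these, 10 were lower in primitive HSC (47.3% of all genes), 5 of them at least 2-fold (17.6% of all genes). Among the 5, Vdac1 was at -1.29 by its brightest probe set, but its 5 measured probe sets ran up to 1.62. Aifm1, which encodes a flavoprotein of the space between the mitochondrial membranes, read 69.2 in primitive HSC and 1726 in maturing HSC, a bound of at least 3.91-fold lower. Htra2, a mitochondrial protease gene, read 71.6 in primitive HSC and 1319 in maturing HSC (at least 2.99-fold lower, with a second probe set at -0.01). The caspase inhibitor gene Xiap read 717 in primitive HSC and 1855 in maturing HSC (-1.37, with a second probe set at -0.41). The mitochondrial nuclease gene Endog went the other way, with 1529 in primitive HSC and 150 in maturing HSC, at least 3.47-fold higher, though its second probe set was at 0.02. No value or bound among the 12 passed 4-fold, where 3.45% of all genes were higher and 4.69% lower by as much. Those of Aifm1, Endog and Htra2 are bounds, so their differences may exceed 4-fold.

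Among 7 measured death receptor genes, 1 passed 4-fold by value or bound, and it was lower in primitive HSC (4.69% of all genes). Tnfrsf1a, a receptor for tumour necrosis factor, read 314 in primitive HSC and 1855 in maturing HSC, a bound of at least 4.21-fold lower. Fadd, the adaptor that recruits the initiator caspase, read 1194 in primitive HSC and 658 in maturing HSC (0.86). Traf2 was higher in primitive HSC by at least 1.63-fold, and Cflar, an inhibitor of that initiator caspase, had a ratio of 0.39.

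Regulators of the members had a median of -0.79 over 15 measured genes, of which 11 were lower and 4 higher in primitive HSC, against 47.3% lower and 52.7% higher over all genes. Ddit3, a stress transcription factor gene, read 9243 in primitive HSC and 1386 in maturing HSC, a ratio of 2.74. Akt2, a kinase of the family that phosphorylates BAD, read 3061 in primitive HSC and 359 in maturing HSC, a bound of at least 6.94-fold higher, while its second probe set was at 0.29. Foxo4 read 304 in primitive HSC and 1307 in maturing HSC (at least 2.96-fold lower). The survival kinase gene Pim1 read 252 in primitive HSC and 1163 in maturing HSC (at least 2.64-fold lower, with a second probe set at -0.38). The other FOXO genes on the list were closer to 0 by their brightest probe set, with Foxo3 at -0.17 and Foxo1 at -0.43, although the 3 measured Foxo1 probe sets reached down to -2.46.

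Binding partners and proteins that control turnover of the members had a median of -0.62 over 18 measured genes, with 7 at least 2-fold lower (17.6% of all genes) and 2 at least 2-fold higher in primitive HSC (15.6%). Huwe1, a ubiquitin ligase that marks MCL1 for degradation, read 62.8 in primitive HSC and 2374 in maturing HSC, at least 5.38-fold lower, but its 3 measured probe sets ran from -2.43 to 0.34. Tmbim6, a suppressor of cell death in the endoplasmic reticulum, read 868 in primitive HSC and 3345 in maturing HSC (-1.95). Bag1, a chaperone cofactor gene named for binding BCL2, read 454 in primitive HSC and 1370 in maturing HSC (-1.59). Ywhab, an adaptor of the family that sequesters phosphorylated BAD, was also at -1.59 by its brightest probe set, while its 6 measured probe sets ran up to 1.63.

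Receptors for cytokines that sustain blood cells had a median of -0.28 over 11 measured genes. In primitive HSC 1 was at least 4-fold higher (3.45% of all genes) and 2 at least 4-fold lower (4.69%). Flt3 read 220 in primitive HSC and 2277 in maturing HSC, and Csf3r read 394 in primitive HSC and 2575 in maturing HSC. Il7r read 2993 in primitive HSC and 164 in maturing HSC, with a second probe set at -0.40. Il6st, the shared signalling subunit of interleukin receptors, read 1142 in primitive HSC and 311 in maturing HSC, with its other measured probe set at -0.03. Across the 7 lists, 81 genes other than the members were measured, 4 of them at least 4-fold higher and 4 at least 4-fold lower, with a median of -0.24. At 4-fold these counts are close to the shares over all genes (3.45% and 4.69%). At 2-fold the pool leaned lower, with 9 higher and 22 lower in primitive HSC, beside 15.6% and 17.6% of all genes. The median over all measured genes was 0.07.

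**Figure D4:**
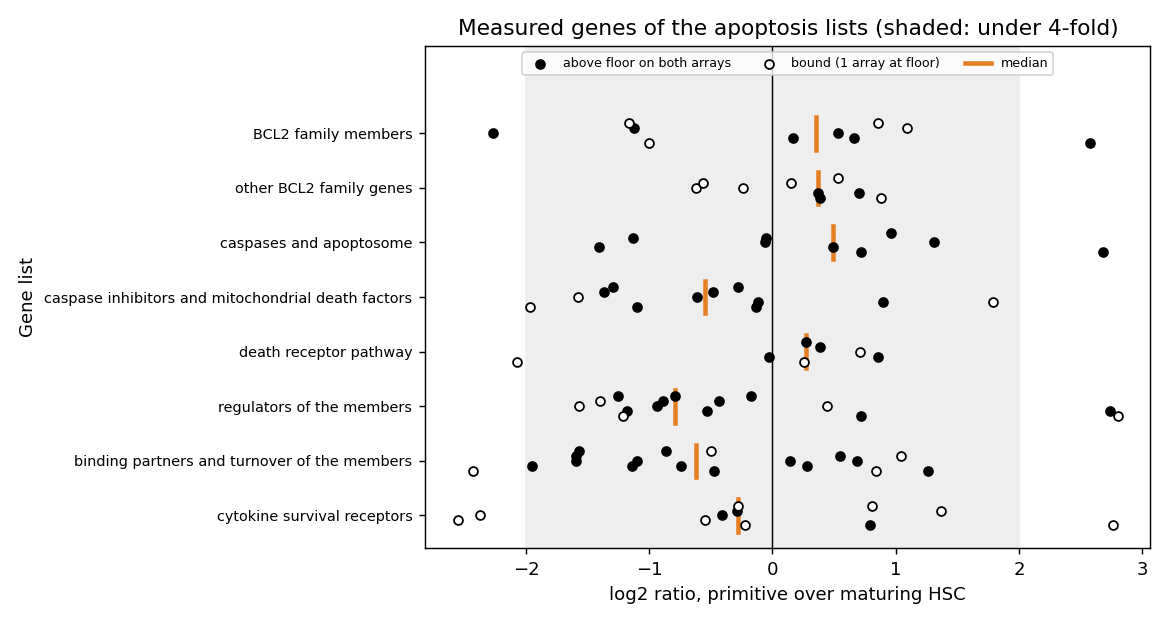
Log2 ratio of primitive over maturing HSC for each measured gene of the 10 members and of 7 further lists, with filled circles above the floor on both arrays, open circles for bounds and an orange bar at the median. List medians run from -0.79 (regulators) to 0.49 (caspases and apoptosome), and few genes lie outside the shaded range of less than 4-fold.

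Of 13 HSC marker genes with a probe set, 12 were above the floor in primitive HSC and 11 in maturing HSC. They moved both ways, with 6 higher (Procr 6.10-fold, Abcg2 at least 3.84-fold) and 7 lower in primitive HSC (Hoxa9 3.07-fold, Meis1 at least 2.72-fold). The 2 measured Hoxa9 probe sets disagreed in direction, with log2 ratios of -1.62 and 1.06. Markers of other blood cells also differed between the arrays. The sums below include values under the floor. Over all genes the same sum was 24391209 in primitive HSC and 19630309 in maturing HSC. The brightest probe sets of 8 T and natural killer cell markers summed to 55836 in primitive HSC and 10627 in maturing HSC, with 5 above the floor in primitive HSC and 2 in maturing HSC and with Cd2, Cd3e and Cd3g under it on both. Most of the primitive sum came from Ccl5 (37795 in primitive HSC and 1511 in maturing HSC) and Cd3d (8673 and 44.2). Of the 5 measured, 4 were higher and 1 lower in primitive HSC. The lower gene, Nkg7 (6299 and 7933), made up most of the maturing sum. Neutrophil markers (9 genes) summed to 107478 in primitive HSC and 56670 in maturing HSC, with 7 above the floor in primitive HSC and 9 in maturing HSC. By value or bound 6 of the 9 were higher in primitive HSC. The brightest were S100a8 (46743 in primitive HSC and 19527 in maturing HSC), Camp (27725 and 14077), Prtn3 (14401 and 7683) and S100a9 (13751 and 5986). The other 3, Mpo (at least 5.87-fold), Csf3r (at least 5.84-fold) and Ltf (3.10-fold), were lower in primitive HSC. B cell markers (7 genes) summed to 2257 in primitive HSC and 4022 in maturing HSC, with 2 above the floor in primitive HSC and 4 in maturing HSC. Erythroid markers (6 genes) summed to 3324 in primitive HSC and 1848 in maturing HSC, but only 2 were measured, 1 higher and 1 lower in primitive HSC. Macrophage markers (7 genes) summed to 7616 in primitive HSC and 5727 in maturing HSC. Of the 6 measured, 5 were higher and 1 lower in primitive HSC. Megakaryocyte markers (6 genes) summed to 6440 in primitive HSC and 6422 in maturing HSC. Among them, Gp9 was at least 4.13-fold higher and Pf4 1.77-fold lower in primitive HSC. BCL2 family genes are used by blood cells at large, and the part of such cells in the ratios of the members was not tested.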

How the data were processed

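Affymetrix arrays of 1 primitive and 1 maturing HSC library were used. The authors deposited linear signal intensities from MAS5, per the submitters' processing notes (its version not given in the sources used here). Their 2% trimmed means were 1000.6 and 1000.4, so this trimmed mean is equal by construction. Other summaries were not equal, as the median intensity was 425.4 in primitive HSC and 454.8 in maturing HSC. Of 22690 probe sets, 64 were controls, 20380 had 1 gene symbol, 691 had several and 1555 were not listed with one. Probe sets with several symbols, among them those of the Bcl2a1 genes, were not used. Symbols of 20351 probe sets matched RefSeq (GRCm38.p6) and 0 changed.

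Both arrays were set to a common trimmed mean, intensities under the pooled median (441.0) were set to it, and log2 ratios were taken, at a threshold of 4-fold. The steps were run on simulated data in which large changes were placed in bright genes with little noise. That run does not bear on calls near the floor or on the spread between probe sets. Named genes were all members and up to 4 of each further list with the largest ratio or bound. Foxo1, Foxo3 and Vdac1 were named after their values were seen. The members and lists were chosen with earlier results of these data known. Of the list genes without a singly annotated probe set, values are not analysed here. Alternatives comprised unscaled deposited values, quantile normalization, lowess (fraction 0.3), centring on a median ratio of 0, hybridisation control scaling, floors at percentiles 25 and 75, no floor with a pseudocount of 1, the median over probe sets, leaving out _x_at and _s_at probe sets, and 2-fold and 8-fold thresholds. The number of arrays limits the precision. Software was matplotlib 3.10.9, statsmodels 0.14.6, scipy 1.17.1, pandas 2.3.3 and numpy 2.4.6 under Python 3.11.15.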

Additional observations from a re-analysis of the deposited data

How the results depend on the processing

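Counts at 4-fold are given as higher, then lower, in primitive HSC. The main setting gave 1 and 1 among the members, 4 and 4 among the other apoptosis genes, and 305 and 415 among all genes. Scaling to the hybridisation controls gave 0 and 2, 2 and 21, and 91 and 1231, with the lowest members Bcl2l11 and Mcl1. The floor at percentile 25 gave 1 and 2, 9 and 10, and 761 and 998, and no floor gave 1 and 2, 10 and 11, and 1200 and 1347, in both cases with Bcl2 added to Bcl2l11. The floor at percentile 75 gave 0 and 1, 1 and 0, and 165 and 126, and there Bcl2, Bcl2l2, Bak1, Bbc3 and Pmaip1 were not measured. The median over probe sets gave 1 higher gene among the other apoptosis genes. The 2-fold threshold gave 2 and 4, 9 and 22, and 1385 and 1559, and the 8-fold threshold 0 and 0, 0 and 0, and 66 and 60. Of the 95 alternative ratios of single members, 85 moved by less than the SD of 0.82 among probe sets of 1 gene and 10 by more. Many of the 85 could not move, so this count is no measure of stability. The deposited values already had nearly equal trimmed means, and the choice among probe sets cannot change a gene with 1 probe set. No called member changed direction in any setting run. No paired analysis was possible because each population has 1 array. Values near the floor limit Bcl2, Bak1, Bbc3, Pmaip1 and the maturing side of Bad.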
